A study of Mus musculus with 8 samples.

Results

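The 10 genes described here act in the handling of acyl chains inside the cell: Acsl3, Lpcat3, Gpam, Lpin1, Dgat1, Dgat2, Soat1, Plin2, Pnpla2 and Pnpla3. They were chosen by function, with earlier results of these data known. All 10 were looked up by symbol and found among the 41730 genes of the count table. Bulk RNA was sequenced from mouse CD8+ OT-I T cells, whose transgenic receptor recognises the ovalbumin peptide SIINFEKL. The T cells had been cultured with SIINFEKL-pulsed bone marrow-derived dendritic cells of genotype LXR-/- and were then purified by flow cytometry. Control cultures received the solvent DMSO, and the others received 2 uM RGX-104, a synthetic agonist of the liver X receptors (LXR). Peptide and LXR-/- dendritic cells were common to both groups, and the labels give the T cells no genotype other than OT-I. Each group held 4 libraries. Neither the culture time nor the age of the mice is stated in the labels.

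Liver X receptors are nuclear receptors that respond to oxysterols and switch on genes of cholesterol efflux and of fatty acid synthesis, the latter partly through the regulator Srebf1. Fatty acids must be joined to coenzyme A before use. The acyl-CoA can then remodel the tails of membrane phospholipids, or be added stepwise to glycerol phosphate to make triglyceride, or esterify cholesterol. Triglyceride and cholesteryl ester are stored in lipid droplets, which perilipins coat and lipases consume. Lpcat3 is a known LXR target in liver and macrophages, and Pnpla3 a known target of Srebf1 in liver.

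With RGX-104, 4 of the 10 genes rose, 2 fell and 4 did not pass the test. Pnpla3, Acsl3, Lpin1 and Lpcat3 rose, by 2.42-fold, 1.58-fold, 1.41-fold and 1.4-fold. Plin2 and Pnpla2 fell by 15.4% and 8.26%. Gpam, Dgat1, Dgat2 and Soat1 did not pass. The counts of all genes were fitted together in edgeR with a quasi-likelihood test, and a gene was called at a Benjamini-Hochberg adjusted p under 0.05. The fit called 8.95% of the 13290 genes tested, 4.82% higher and 4.13% lower. All 10 genes passed the filter on low counts, and their counts ran from 134 to 5206 per library. In the 6 called genes the groups did not overlap, 4 with RGX-104 higher and 2 with it lower. Over all tested genes, groups did not overlap in 14.5%, with RGX-104 higher in 7.07% and lower in 7.45%. The median log2 change of the 10 genes was 0.04, against 0.00072 over all tested genes.

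The agonist's known targets were checked first. Abca1, a cholesterol efflux transporter, went from 1.72 to 125 CPM (reads of the gene per 1000000 counted, after scaling), Abcg1, a related transporter, from 43.3 to 159 CPM, and Srebf1 from 310.2 to 527 CPM. Library totals ranged from 30642316 to 37714355 counts. The 8 CD8 T cell markers summed to 3227 to 3332 CPM in control and 3156 to 3211 CPM in RGX-104 libraries, and they did not move 1 way. Cd8a, Cd8b1 and Cd3e were called lower (log2 changes of -0.12, -0.12 and -0.14) and Lck was called higher (0.098), while Thy1 (0.086), Cd3d (-0.011), Cd3g (-0.022) and Zap70 (-0.029) were not called. The part of these changes in the small falls described below was not tested. The 10 myeloid markers summed to 5.85 to 7.28 CPM in control and 5.51 to 7.02 CPM in RGX-104 libraries, mostly from Cd68. Of these 10, Lyz2, Csf1r, Spi1 and Tyrobp had at most 8 counts in any library, and Clec9a and Cd209a at most 1. Fcer1g had up to 13 counts, Flt3 up to 17, Itgax up to 34 and Cd68 up to 212. In bulk RNA, fewer cells of a type and less RNA per cell cannot be told apart. Whether the 4 libraries of a group come from different mice or cultures is not stated, so every p-value here reflects the spread among these libraries alone, which may be technical.

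The sequences upstream of the 6 called genes are shown because the data bear on their transcripts. They are RefSeq promoter entries for GRCm38.p6, printed 5′ to 3′ on the gene's strand and reaching back 250 bases from the transcript start, without bases inside annotated exons or inside the RefSeq span of a gene that starts within the window. Entries were matched for 8 of the 10 genes. Capitals mark the GC box GGGCGG, the CCAAT box CCAAT and the single nuclear receptor site AGGTCA, read on both strands.
Pnpla3 (chr15:84167566-84167775, strand +): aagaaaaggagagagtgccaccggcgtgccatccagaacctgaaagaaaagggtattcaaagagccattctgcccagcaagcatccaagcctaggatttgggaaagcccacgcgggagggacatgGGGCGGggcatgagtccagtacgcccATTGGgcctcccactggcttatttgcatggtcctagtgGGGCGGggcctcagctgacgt
Acsl3 (chr1:78657575-78657824, strand +): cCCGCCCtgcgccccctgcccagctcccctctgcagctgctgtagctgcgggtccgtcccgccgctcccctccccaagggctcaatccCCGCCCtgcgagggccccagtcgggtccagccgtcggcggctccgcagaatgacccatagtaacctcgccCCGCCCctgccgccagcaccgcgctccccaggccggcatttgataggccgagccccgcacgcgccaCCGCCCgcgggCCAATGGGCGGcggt
Lpin1 (chr12:16610967-16611216, strand -): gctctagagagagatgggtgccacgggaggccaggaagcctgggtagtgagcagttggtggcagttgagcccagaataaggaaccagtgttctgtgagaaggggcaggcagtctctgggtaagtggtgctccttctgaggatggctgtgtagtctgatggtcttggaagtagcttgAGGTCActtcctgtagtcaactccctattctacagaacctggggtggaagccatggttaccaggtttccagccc
Lpcat3 (chr6:124662854-124663026, strand +): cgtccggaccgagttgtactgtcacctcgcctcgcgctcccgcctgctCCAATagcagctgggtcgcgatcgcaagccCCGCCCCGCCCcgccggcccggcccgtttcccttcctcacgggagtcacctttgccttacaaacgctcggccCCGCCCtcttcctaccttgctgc
Plin2 (chr4:86670218-86670309, strand -): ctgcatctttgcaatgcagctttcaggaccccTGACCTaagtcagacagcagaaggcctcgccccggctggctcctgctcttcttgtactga
Pnpla2 (chr7:141454938-141455187, strand +): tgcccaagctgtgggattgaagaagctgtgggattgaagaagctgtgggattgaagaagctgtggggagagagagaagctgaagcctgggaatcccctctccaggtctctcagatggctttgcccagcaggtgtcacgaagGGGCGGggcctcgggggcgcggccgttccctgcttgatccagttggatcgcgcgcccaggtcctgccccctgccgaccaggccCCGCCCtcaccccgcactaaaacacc

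No window of the 8 matched genes held the LXR response element, a direct repeat of AGGTCA with 4 bases between the copies, which 0.0152% of 32851 promoter windows of that length held. The same was true of the sterol regulatory element TCACNCCAC (1.05% of windows) and of the E-box CACGTG (6.02%). The single site AGGTCA, contained in the LXR response element, was found in windows of Lpin1, Plin2 and Gpam and in 14% of all windows. Of the 6 windows shown, that of Acsl3 came nearest to the full LXR element, matching 10 of its 12 defined bases at the best position. The Gpam window that holds AGGTCA, not shown, also matched 10 of 12, and Gpam was not called. Of all windows, 2.57% equalled or exceeded this match. Lpin1 and Pnpla3 matched 9 of 12 (18.5% of windows) and Lpcat3, Plin2 and Pnpla2 matched 8 of 12 (70.6%). CCAAT boxes were found in 6 of the 8 genes and in 33.8% of windows, and GC boxes in 5 genes and 32.7% of windows. Gpam had an additional window, so these counts of genes and shares of windows differ in unit. The Lpin1 entry is an internal start of that gene, as is the Gpam entry that holds AGGTCA. Matches were counted over the whole 250 bases, so some lie outside the stretches printed. These matches describe the letters of the windows only.

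For acyl-CoA activation, the Acsl3 transcript changed. It encodes an enzyme of the endoplasmic reticulum and of nascent lipid droplets that joins long-chain fatty acids to coenzyme A. Acsl3 (chromosome 1, 78657825 to 78707743, GRCm38) was at 43.8, 45.5, 48.0 and 46.5 CPM in control replicates 1 to 4. It was at 70.8, 75.9, 70.3 and 74.3 CPM in the RGX-104 libraries. Every RGX-104 library lay far above every control library. The log2 change was 0.66 ± 0.04 (SE, n = 4 each; edgeR adjusted p = 5.90e-13). Utp14b, which shares the start of Acsl3 and 244 exonic bases on the same strand, rose by 0.66 ± 0.08 from 6.06 to 9.53 CPM. Reads of the 2 genes may be shared, and the part of this in either change was not tested. Acsl3 also has a copy on an alternate scaffold, which held 0 counts in every library.

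Among 17 acyl-CoA synthetase genes, 14 were tested, of which 4 rose and 1 fell, with a median log2 change of 0.06. The share called was 35.7%, beside 8.95% of all tested genes. Without Acsl3, 3 of 13 rose and 1 fell. Apart from Acsl3 the rises were smaller: Acss2, which activates acetate, by 0.33 ± 0.04, Acsl6 by 0.24 ± 0.04 and Acsl4, which prefers arachidonate, by 0.13 ± 0.03 (log2, SE). Acsl5, the most abundant of them per length, fell by 0.10 ± 0.03 on the log2 scale, from 494 to 460.4 CPM. Levels were divided by exonic length to compare genes. On that scale Acsl3 held 5.30% ± 0.175 of the list's summed level in control and 8.17% ± 0.300 in RGX-104 libraries (SD, n = 4). Acsl5 held 51.0% ± 0.751 and 46.3% ± 0.339. Shares within a list are tied, so a rise of 1 gene lowers those of the others.

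For phospholipid remodelling, the Lpcat3 transcript changed. Its product places polyunsaturated chains, arachidonate among them, on lysophosphatidylcholine. Lpcat3 (chromosome 6, 124663094 to 124704716) was at 104.6, 99.0, 104.7 and 110.4 CPM in control libraries and at 143.7, 147.3, 149.7 and 144.2 CPM in RGX-104 libraries. The RGX-104 libraries were close to each other and all above the controls. The log2 change was 0.48 ± 0.03 (SE, n = 4 each; edgeR adjusted p = 2.52e-11). Emg1 overlaps the end of Lpcat3 on the other strand with 334 shared exonic bases, and was at 144.6 and 138.9 CPM (log2 change -0.06, edgeR adjusted p = 0.259).

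Of the other 8 tested lysophospholipid acyltransferase genes edgeR called 0, as did DESeq2 and limma-voom. At an unadjusted p under 0.05 there were 3 by edgeR, 2 by DESeq2 and 3 by limma-voom. Lpcat1, which acts on the same lysophospholipid with saturated chains, was at 48.4 ± 1.72 and 46.6 ± 1.59 CPM (SD, n = 4). Per length Lpcat3 already had the highest level of the list in control, at 29.5% ± 0.659 of the sum, and was at 36.5% ± 0.835 with RGX-104.

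**Figure D1:**
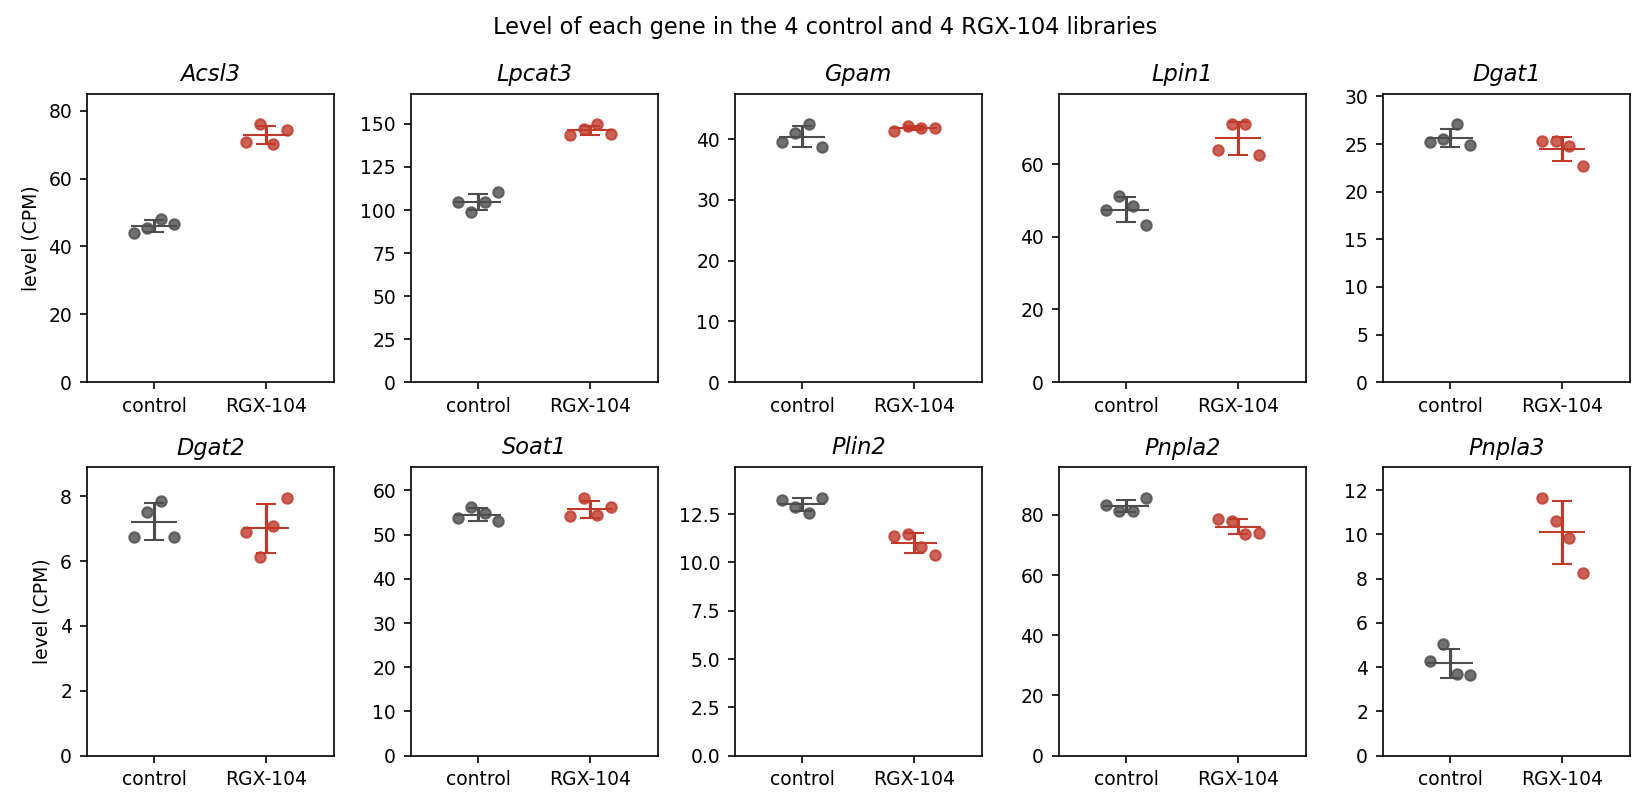
Level of each of the 10 genes in CPM (vertical axes, each starting at 0) in control (grey) and RGX-104 (red) libraries. Points are libraries, the wide line is the mean and the bars are 1 SD over 4 libraries. The groups are separate for Acsl3, Lpcat3, Lpin1, Plin2, Pnpla2 and Pnpla3 and overlap for Gpam, Dgat1, Dgat2 and Soat1.

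Phospholipid head group and phospholipase genes, which the 10 genes do not include, were mostly not called, and the few called went in both directions. Of 17 tested head group genes 2 rose and 1 fell, with a median log2 change of 0.02. The share called was 17.6%, beside 8.95% of all tested genes. Pcyt2, the rate-limiting enzyme of phosphatidylethanolamine synthesis, rose by 0.26 ± 0.03 (log2, SE) from 219.5 to 262 CPM. Pcyt1a, its counterpart for phosphatidylcholine, changed by -0.15 ± 0.04, and Pgs1, an enzyme of the cardiolipin pathway, by 0.13 ± 0.03, although the groups of Pgs1 overlapped. Of 11 tested phospholipase genes 2 rose and 1 fell, a share of 27.3% beside the same 8.95%. Pld3 rose by 0.34 ± 0.03, but its product is known as a lysosomal exonuclease in spite of its family name. Pla2g15, a lysosomal phospholipase, rose by 0.17 ± 0.05 (edgeR adjusted p = 0.0422), and Pla2g16 changed by -0.20 ± 0.04. DESeq2 and limma-voom each called 2 genes of this list, against 3 by edgeR.

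The first step of glycerolipid synthesis showed no call in its mitochondrial enzyme Gpam, which acylates glycerol phosphate and is a known SREBP1c target in liver. Gpam (chromosome 19, 55067635 to 55127319) was at 39.5, 41.1, 42.4 and 38.7 CPM in control and 41.3, 42.2, 41.9 and 41.9 CPM in RGX-104 libraries. The RGX-104 values fell inside the range of the controls. The log2 change was 0.05, with a 95% interval from -0.03 to 0.13 (edgeR adjusted p = 0.471). Gpat4, the more abundant enzyme of the same step in the endoplasmic reticulum, was at 150.2 ± 2.93 and 146.1 ± 1.098 CPM. Of 11 tested genes from glycerol phosphate to phosphatidic acid edgeR called only Agpat4, an acyltransferase of the next step. It rose by 0.14 ± 0.04 (log2, SE). That share called, 9.09%, was near the 8.95% of all tested genes. DESeq2 called 0 genes of this list, with 1 at an unadjusted p under 0.05.

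Lpin1 acts later, removing the phosphate from phosphatidic acid to give diacylglycerol, and its product also serves as a transcriptional coactivator. Lpin1 (chromosome 12, 16535669 to 16653903) was at 47.3, 51.2, 48.4 and 43.2 CPM in control and at 64.0, 70.9, 70.9 and 62.6 CPM in RGX-104 libraries. The lowest RGX-104 library lay above the highest control, although both groups spread more widely than for Lpcat3. The log2 change was 0.50 ± 0.05 (SE, n = 4 each; edgeR adjusted p = 7.45e-06). Of the 5 other tested phosphatidic acid phosphatase genes edgeR, DESeq2 and limma-voom called 0, with 0 at an unadjusted p under 0.05 by each. Lpin2, a close relative, was at 51.1 ± 2.91 and 48.4 ± 1.82 CPM. Per length Lpin1 held 23.1% ± 0.983 of the list's sum in control and 29.7% ± 0.975 with RGX-104. Lpin2 held 19.7% ± 0.450 and 16.9% ± 0.331. A rise of Lpin1 lowers the share of Lpin2, whose own level was not called (edgeR adjusted p = 0.274).

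The last acylation to triglyceride is made by Dgat1 or Dgat2, unrelated enzymes for 1 reaction. Dgat1 (chromosome 15, 76502012 to 76512021) was at 25.2, 25.5, 27.1 and 24.9 CPM in control and 25.3, 25.3, 24.8 and 22.7 CPM in RGX-104 libraries. Dgat2 (chromosome 7, 99153663 to 99182713) was at 6.74, 7.52, 7.86 and 6.74 CPM in control and 6.89, 6.11, 7.08 and 7.95 CPM in RGX-104 libraries. In both genes the groups overlapped. The log2 changes were -0.07 (95% interval -0.16 to 0.03; edgeR adjusted p = 0.423) and -0.04 (-0.22 to 0.14; adjusted p = 0.820). Of the 3 tested genes of this list, Dgat1, Dgat2 and Awat2, edgeR, DESeq2 and limma-voom called 0, with 0 at an unadjusted p under 0.05. Awat2 was at 1.70 CPM in both groups.

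Soat1, which esterifies cholesterol for storage, was at 53.8, 56.3, 54.8 and 53.0 CPM in control and 54.1, 58.3, 54.3 and 56.2 CPM in RGX-104 libraries (chromosome 1, 156428108 to 156474328). The groups overlapped, with a log2 change of 0.03 (95% interval -0.04 to 0.11; edgeR adjusted p = 0.621). Soat2, the second gene of this reaction, fell from 34.1 ± 2.29 to 30.5 ± 0.425 CPM, a log2 change of -0.16 ± 0.04 (SE; edgeR adjusted p = 0.0252), although its groups overlapped. It was the only gene called of 5 tested for cholesteryl ester synthesis and hydrolysis, or 20%, beside 8.95% of all tested genes.

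**Figure D2:**
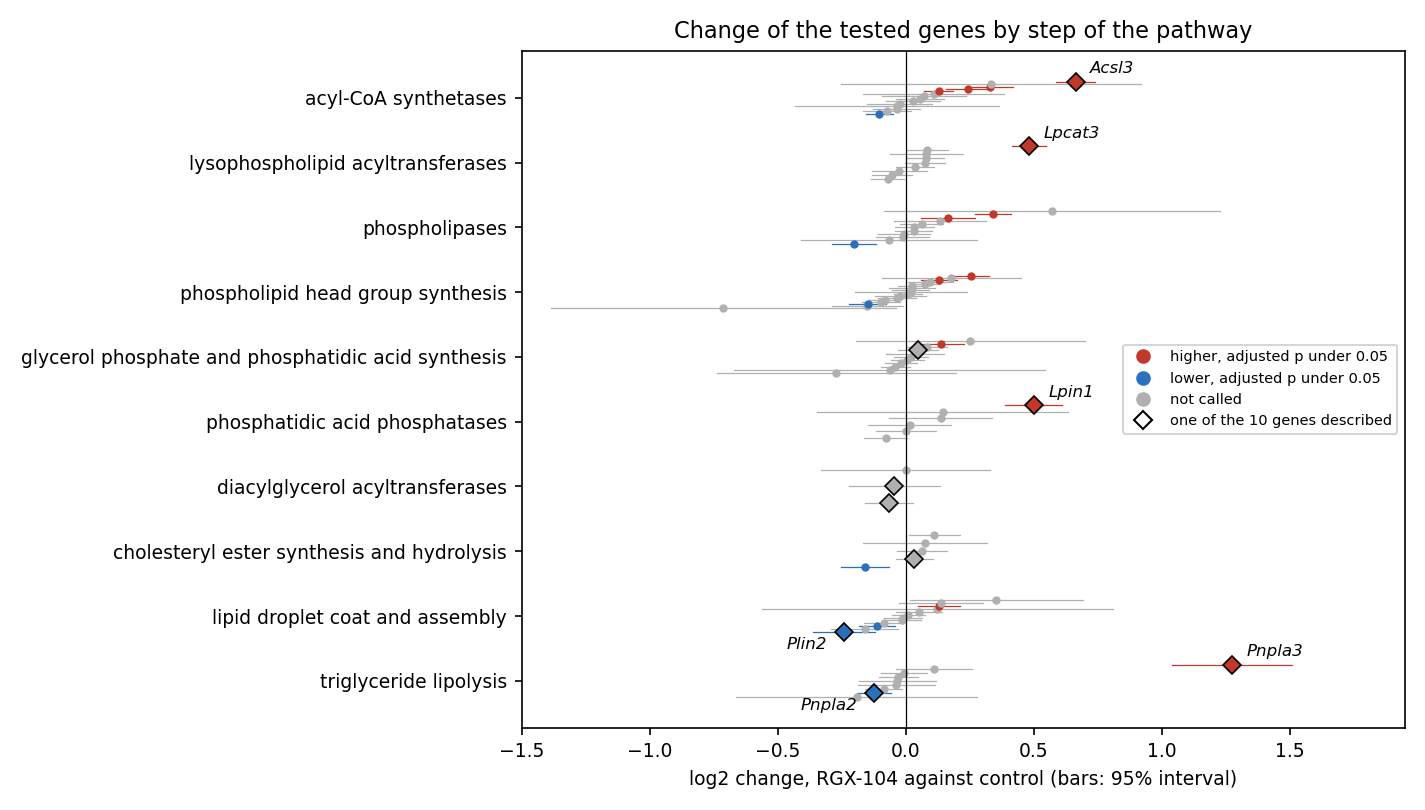
Log2 change with RGX-104 against control (horizontal axis) of the 97 tested genes of the pathway, 1 row of points per step. Diamonds are the 10 genes described and circles the other genes of each list, bars are 95% intervals, red and blue mark genes called higher and lower by edgeR and grey those not called. Pnpla3 lies farthest to the right, and Acsl3, Lpcat3 and Lpin1 lie apart from most genes of their step.

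Plin2, the perilipin that coats lipid droplets outside fat cells, was lower with RGX-104. Plin2 (chromosome 4, 86626910 to 86670217) was at 13.2, 12.9, 12.6 and 13.3 CPM in control and at 11.4, 11.5, 10.8 and 10.4 CPM in RGX-104 libraries. All RGX-104 libraries lay below all controls, by a small margin. The log2 change was -0.24 ± 0.06 (SE, n = 4 each; edgeR adjusted p = 0.00928). Plin3, a perilipin that also exists free in the cytosol, rose by 0.13 ± 0.04 (log2, SE) from 31.9 to 35.0 CPM. Of the 12 tested droplet coat and assembly genes, Plin3 was the 1 called higher. Plin2 and Ldah, encoding a droplet-associated hydrolase (-0.11 ± 0.03), were lower. Called genes made up 25% of the list's tested genes, beside 8.95% of all tested genes. Neither Plin3 nor Ldah was called by DESeq2, which called 1 gene of this list.

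Of the tested lipolysis genes only Pnpla2 and Pnpla3, both with a patatin domain, were called, and their transcripts moved in opposite directions. They made up 22.2% of the list's tested genes, beside 8.95% of all tested genes. Pnpla2 encodes adipose triglyceride lipase, which makes the first cut of stored triglyceride. Pnpla2 (chromosome 7, 141455188 to 141460743) was at 83.3, 81.4, 81.1 and 85.6 CPM in control and at 78.6, 77.9, 73.7 and 74.0 CPM in RGX-104 libraries. All RGX-104 libraries were below the controls. The log2 change was -0.12 ± 0.03 (SE, n = 4 each; edgeR adjusted p = 0.0152). Without RGX-104 replicate 3 or replicate 4 the log2 change was -0.11 in both fits, with an edgeR adjusted p of 0.0709 and 0.0680, and the gene was not called.

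Pnpla3 encodes a related droplet protein that can bind the coactivator of Pnpla2. Pnpla3 (chromosome 15, 84167776 to 84189521) was at 4.30, 5.07, 3.70 and 3.67 CPM in control and at 11.7, 10.6, 9.84 and 8.26 CPM in RGX-104 libraries. The lowest RGX-104 library exceeded the highest control, and the RGX-104 libraries spread widely. The log2 change of 1.27 ± 0.11 (SE, n = 4 each; edgeR adjusted p = 1.50e-07) ranked 19 by size among all tested genes. Of the 7 other tested lipolysis genes edgeR, DESeq2 and limma-voom called 0, with 1 at an unadjusted p under 0.05 by each. Among these, Abhd5, the coactivator of Pnpla2, was at 9.40 ± 0.911 and 9.20 ± 0.251 CPM, and Lipe, hormone-sensitive lipase, at 9.30 ± 0.888 and 10.04 ± 0.351 CPM (SD, n = 4).

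Per kilobase of exon, the 10 genes ranked in control from Lpcat3 at 32.0 ± 1.42 CPM, through Pnpla2 at 27.4 ± 0.686, Acsl3 at 10.5 ± 0.398 and Dgat1 at 8.40 ± 0.316, to lower levels. Next came Gpam at 6.06 ± 0.248, Soat1 at 5.56 ± 0.147, Lpin1 at 4.92 ± 0.347, Plin2 at 3.71 ± 0.0996, Pnpla3 at 2.703 ± 0.426 and Dgat2 at 2.34 ± 0.184 CPM per kilobase (SD, n = 4). Only Pnpla3 and Dgat2 overlapped among neighbours in this order. With RGX-104 the first 4 genes kept their places. Lpin1 at 6.94 ± 0.462 and Pnpla3 at 6.52 ± 0.923 stood beside Gpam at 6.28 ± 0.0531, and these neighbours overlapped. Exonic lengths were taken from GENCODE M21 and may differ from those counted, so levels per kilobase are approximate. The exons of Pnpla3 came to 1.548 kilobases there.

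Whether paired genes changed differently was tested on the log2 ratio of their CPM in each library, for 7 pairs of related function and for Soat1 with Dgat1, which esterify different lipids, with a two-sided exact permutation test over the 4 and 4 libraries. The ratio of Pnpla3 to Pnpla2 rose by 1.38, from -4.29 ± 0.233 to -2.91 ± 0.170 (SD, n = 4). Lpin1 to Lpin2 rose by 0.57, Lpcat3 to Lpcat1 by 0.54 and Acsl3 to Acsl4 by 0.53, whereas Plin2 to Plin3 changed by -0.37. In each of these 5 pairs the groups did not overlap, which gives the smallest exact permutation p possible, 0.0286 (adjusted over the 8 pairs, 0.0457). Gpam to Gpat4 (0.09) and Soat1 to Dgat1 (0.10) each had an exact permutation p of 0.114 (adjusted, 0.131), and Dgat2 to Dgat1 (0.02) one of 0.886. The pairs were chosen with earlier results of these data known. In the 5 pairs that passed, the first gene had already been called with separate groups. Their p-values therefore add no support to those calls. At the smallest p possible, the adjusted value depends on how many such pairs the list holds.

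**Figure D3:**
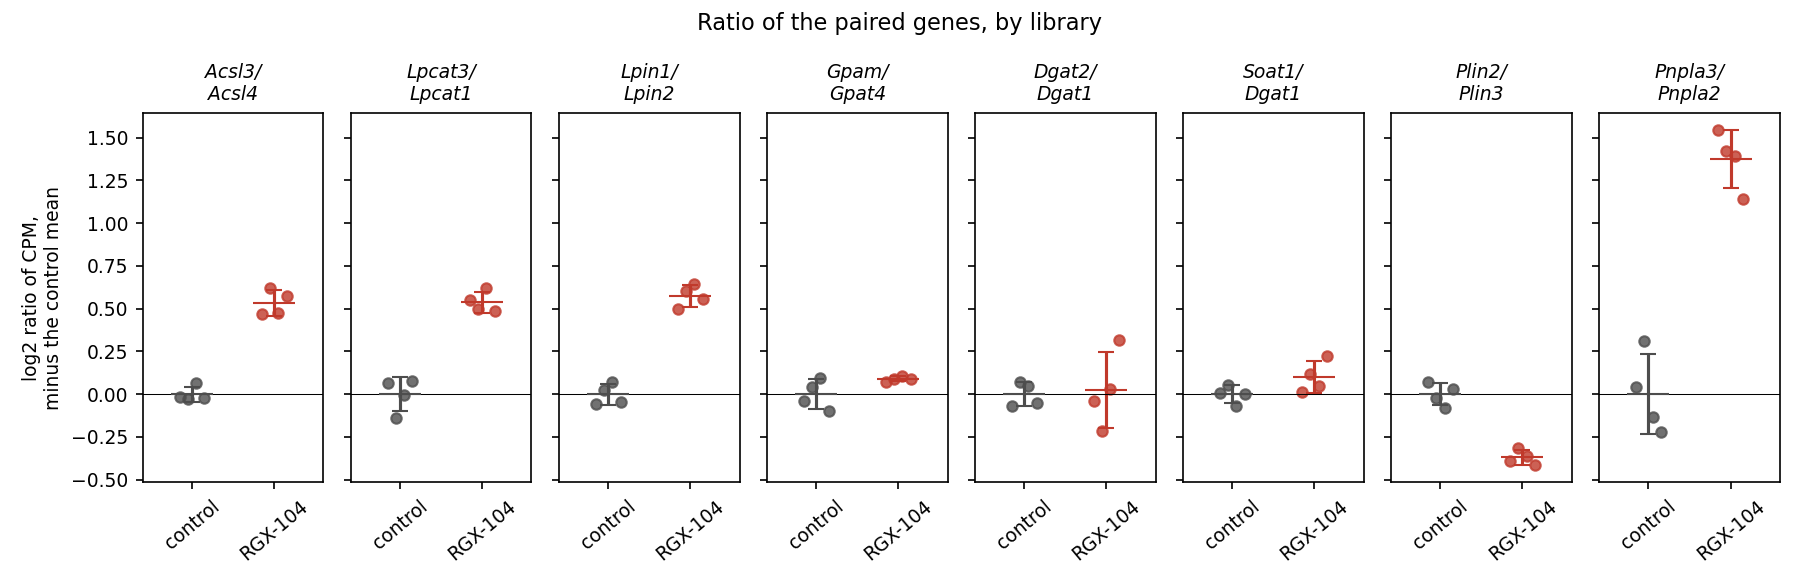
Log2 ratio of CPM of each of the 8 pairs by library, shown relative to the control mean of the pair (vertical axis). Points are libraries, the wide line is the mean and bars are 1 SD over 4 libraries. Pnpla3 to Pnpla2 shows the largest shift of the 8 pairs and Plin2 to Plin3 the only separated downward one, and Dgat2 to Dgat1 varies most among RGX-104 libraries.

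The pathway lists held 116 other genes. Of the 87 tested, 9 rose and 5 fell, together 16.1%, beside 8.95% over all genes. Their median log2 change was 0.02. DESeq2 called 10 of these genes, 6 higher and 4 lower, beside 8.67% of all genes. The fit with 1 surrogate variable also called 10, beside 5.94% of all genes. Over all alternatives that used every library, the count ran from 10 to 14. The count of 14 dropped to 9 without control replicate 3 or without RGX-104 replicate 1, 2 or 4. Those that rose numbered 5 without control replicate 2 or RGX-104 replicate 1, and those that fell 3 without control replicate 3 or RGX-104 replicate 2 or 4.

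**Figure D4:**
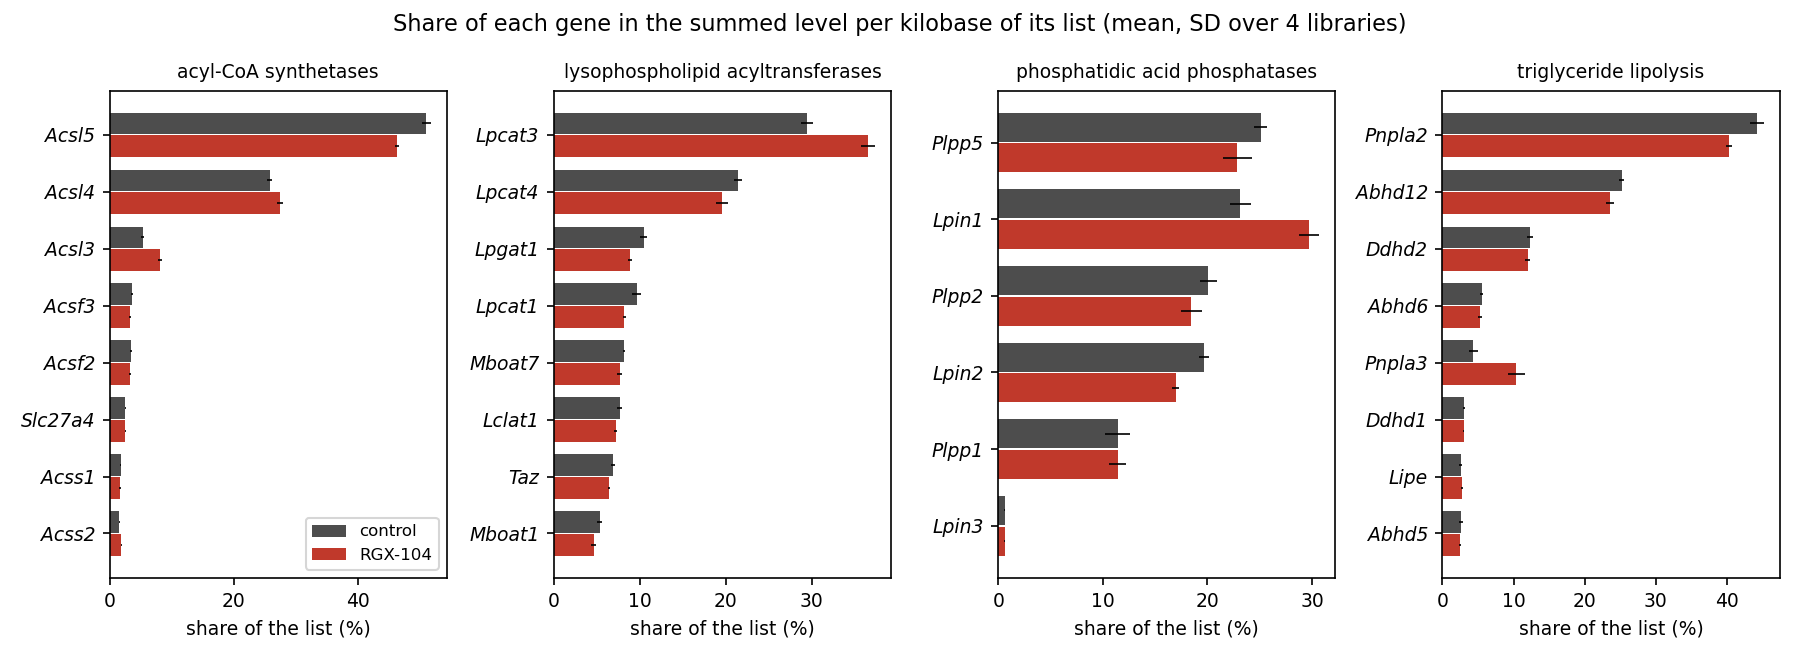
Share of each gene in the summed CPM per kilobase of its list (horizontal axes, percent, starting at 0), for 4 lists and up to 8 genes of each. Bars are means over 4 control (grey) or 4 RGX-104 (red) libraries and lines are 1 SD. Lpcat3 goes from 29.5% to 36.5%, Lpin1 from 23.1% to 29.7%, Acsl3 from 5.30% to 8.17% and Pnpla3 from 4.36% to 10.4% of its list.

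The genes whose profile over the 8 libraries was most like that of each called gene were found by the root mean square difference of log2 CPM, each centred on its mean. For Acsl3 these were Srebf1 (0.0625) and Ctnnal1 (0.0733), and for Lpcat3 they were B4galt5 (0.0372) and Slc2a6 (0.0512). For Lpin1 they were Rasgrp4 (0.0438) and Osbpl5 (0.0506), and for Pnpla3 they were Rnft2 (0.161) and Sema4a (0.164), which were less close. Rab3ip (0.0133) was near to Pnpla2, and Ifih1 (0.0289) and Pdcd1lg2 (0.0298) were nearest to Plin2. Srebf1 itself rose by 0.77 ± 0.03 (log2, SE), beside 0.66 for Acsl3. Each mean was taken over both groups, so genes with a similar change with RGX-104 come out as near. Shared regulation was not tested.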

How the data were processed

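RNA sequencing counts of 4 control and 4 RGX-104 libraries were analysed. The values the authors deposited are raw counts, whole numbers for each gene and library. The submitters' processing notes name GRCm38, STAR 2.7.5, cutadapt 2.10, DESeq2 1.4 and R 4.1.0, with no role for each. How reads were counted, and with which strand setting, is not given in the sources used, so reads of overlapping genes cannot be assigned. The control columns matched numbered samples. The RGX-104 columns carry numbers that match no sample number of that group, so only their group is known. They are numbered here by column. All columns were used.

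Genes were filtered with filterByExpr (minimum count 10, minimum total 15) and tested with edgeR 4.0.16 in R 4.3.3, using TMM scaling, robust fitting and treatment as the only term. SEs were derived from the F statistic, and CPM used TMM-scaled totals. Ratios used log2(CPM + 0.1). The function for the fit was tested on simulated data. Alternatives were DESeq2 1.42.0, limma-voom (limma 3.58.1), other scalings and filters, scaffold copies added to their gene, 1 surrogate variable (sva 3.50.0) and leaving out each library.

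The 10 genes, the pathway lists and the pairs were chosen with earlier results of these data known. Genes named were the 10, up to 4 called genes of each list with the largest changes, genes of the pairs, 3 LXR targets and the 2 most alike genes of each called member, of which 1 is not reported here. Other list members named were chosen after their values were seen. Gene positions came from RefSeq GRCm38.p6.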

Additional observations from a re-analysis of the deposited data

How the results depend on the processing

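Pnpla3, Acsl3, Lpin1, Lpcat3 and Plin2 kept their direction and their call with DESeq2, limma-voom, other scalings and filters, added scaffold copies, 1 surrogate variable and without any 1 library. Without 1 library their log2 changes ran from 1.20 to 1.38, 0.64 to 0.69, 0.46 to 0.54, 0.46 to 0.51 and -0.26 to -0.21. The highest adjusted p for Plin2 was 0.0459. Pnpla2 kept its call under the alternatives that used all libraries, but ranged from -0.14 to -0.11 and lost its call without RGX-104 replicate 3 or 4, so the number of genes called lower ran from 1 to 2 and the number called in all from 5 to 6. Dgat2, not called, ran from -0.11 to 0.019 and so changed sign, as did the ratio of Dgat2 to Dgat1, from -0.076 to 0.10. Without control replicate 3 the ratio of Gpam to Gpat4 passed (adjusted p = 0.0381), and 5 to 6 pairs passed over all left-out libraries. Of the other pathway genes 9 to 12 were called without 1 library (5 to 8 higher and 3 to 5 lower), and with library totals as the only scaling 3 were lower. Among all tested genes 6.28% to 10% were called without 1 library, fewer than with all libraries in 7 of the 8 fits, and the cause of each lost call was not tested. No paired analysis was made. The labels number the control samples 1 to 4 and the RGX-104 samples 5 to 8. The count columns number each group 1 to 4, and whether equal numbers mark pairs is not stated in the labels. Dgat2 and Pnpla3 had the lowest counts of the 10, at most 285 and 375 per library, and the effect of depth on them was not tested.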

Other observations

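Several genes of lipid storage had almost no reads. Plin1, Plin4 and Plin5, perilipins of fat cells and oxidative tissues, had at most 1, 11 and 6 counts in any library, and Cidea and Cidec, which enlarge droplets, at most 2 and 1. G0s2, an inhibitor of Pnpla2, had at most 8 counts. Lpcat2, a relative of Lpcat1 known from inflammatory cells, had at most 2. Mogat2, of the monoacylglycerol route to triglyceride, was at 0 in every library, which allows up to 0.0979 CPM in the smallest library (3 counts; counting error only). Agpat1 was also at 0, but it has a copy on an alternate scaffold, so its expression was not assessed.

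Hilpda, which encodes a droplet protein that inhibits Pnpla2, was among the highest droplet genes per length, at 33.8% ± 1.45 of the list's sum in control and 34.7% ± 1.68 in RGX-104 libraries (SD, n = 4). It was at 60.6 ± 3.12 and 62.8 ± 3.84 CPM (edgeR adjusted p = 0.520).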
